A study of Macaca mulatta with 2 samples.

Results

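The genes described here are the corticosteroid receptors and a set of genes that they are known to induce, in the prefrontal cortex of infant rhesus macaques with and without sevoflurane anesthesia. They are 9 named genes of the 33618 in the count table, 2 receptors (NR3C1 and NR3C2) and 7 induced genes (FKBP5, TSC22D3, SGK1, ZBTB16, KLF9, ERRFI1 and MT2A). They were chosen by symbol, for their known role, with earlier results of these data known. All 9 were in the table. Levels are given in CPM, counts per 1000000 reads of the scaled library, whereas the filter of 1 CPM used the library total before scaling. All 9 reached 1 CPM in one library or the other, as did 18050 of all genes.

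RNA sequencing of 1 control and 1 sevoflurane-treated animal was analysed here. The study describes 3 per group, and the rest were not analysed here. Both labels give rhesus macaque prefrontal cortex at postnatal day 28. By the labels, sevoflurane was inhaled at about 2.5 to 3% for 4 h on days 7, 14 and 28. The study's results section gives the same days, whereas its methods place the later exposures at older ages. The methods also state intubation, pure oxygen as carrier gas, and rearing with the mother between exposures, with tissue collection at the end of the final one. What the control animal received before sampling, and whether it was handled or intubated, is not given in the sources used here. No genotype, strain or further agent is named for either animal.

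Cortisol reaches the cortex from the blood and binds a pair of related receptors, which then enter the nucleus and switch genes on or off. The mineralocorticoid receptor, encoded by NR3C2, has the higher affinity and is largely occupied at resting hormone levels, whereas the glucocorticoid receptor, encoded by NR3C1, is engaged as cortisol rises with stress or the daily rhythm. Among the genes switched on is FKBP5, whose protein binds the receptor complex and lowers its affinity for hormone, a short feedback loop within the cell.

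The control was sequenced to 16960880 reads on genes and the sevoflurane sample to 9839105, a depth ratio of 1.72. Where a pair of read counts is given below without names, the control comes first. The 9 markers of neurons were all read in both libraries and summed to 5495 CPM in the control against 4804 CPM with sevoflurane. The libraries differed in their cell markers. At least 2-fold lower with sevoflurane were 7 of 8 oligodendrocyte and 2 of 8 astrocyte markers (GFAP and AQP4), beside 5.47% of the 18050 genes. By the same measure 3 of 4 red blood cell genes and 3 of 6 of meninges and choroid plexus were higher, beside 7.56%. The 7 genes of the Y chromosome held 3 reads in the control against 4308 with sevoflurane. By these counts the control was female and the sevoflurane animal male. The study's methods list only females as controls and 1 male among the anesthetized animals. Animal, sex, exposure and these features differ together, and with 1 animal per group they cannot be told apart. Every difference given here compares these 2 libraries and not the conditions, no p-value is given, and each 95% interval covers counting error only. In whole tissue, fewer cells of a type and less RNA per cell cannot be told apart either.

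The receptors differed little between the libraries. NR3C1 had 2287 reads in the control against 1450 with sevoflurane, or 136 and 146 CPM. The sevoflurane library was slightly the higher, with a log2 ratio of 0.10 and a 95% interval of 0.0055 to 0.20. When the control library was sampled down to equal depth, that ratio was 0.08 and its interval (-0.03 to 0.19) included equal expression. NR3C2 had 368 and 262 reads, or 21.9 CPM in the control against 26.4 CPM with sevoflurane, a log2 ratio of 0.27 (0.03 to 0.50). Both receptors thus stood within the interquartile range of all 18050 genes compared (-0.34 to 0.37).

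The balance between the receptors was compared through their reads in the same library, where depth and transcript length drop out of the ratio between libraries. There were 0.161 NR3C2 reads for each NR3C1 read in the control against 0.181 with sevoflurane. The balance in the sevoflurane library was 1.12 times that of the control, with an exact conditional 95% interval of 0.942 to 1.34. The counts thus showed no difference in receptor balance beyond counting error and left room for a difference of up to 1.34 times.

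**Figure D1:**
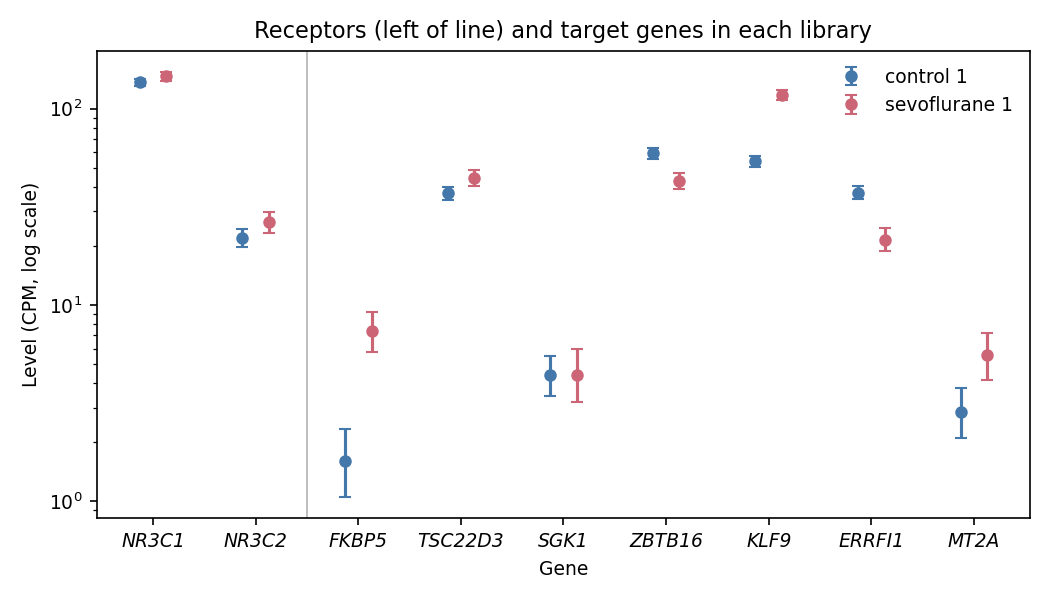
Level of each gene in the control (blue) and sevoflurane (red) library, in CPM on a log axis, with receptors left of the vertical line; points are single libraries and bars are exact 95% counting intervals. FKBP5 and KLF9 show the widest separation, with 1.61 and 7.35 CPM for FKBP5 and 54.0 and 117 CPM for KLF9, while the points of SGK1 lie level.

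The induced genes did not move as a group. Of the 7, 2 were at least 2-fold higher in the sevoflurane library (FKBP5 and KLF9), MT2A was higher by less than 2-fold, TSC22D3 was slightly higher, SGK1 was level, and ZBTB16 and ERRFI1 were lower. Among all 9 genes with the receptors, 2 (22.2%) were at least 2-fold higher with an interval that excluded equal expression, beside 7.56% of all genes compared, and 0 were at least 2-fold lower, beside 5.47%. Without regard to size, the interval lay above equal expression for 6 of the 9 and below it for 2, beside 28.4% and 28.1% of all genes. How often an interval excludes equal expression depends on the number of reads behind it. The median log2 ratio of the 9 was 0.26, and that of all genes was -0.0048.

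FKBP5, the receptor co-chaperone of the feedback loop, showed the widest difference of the set. It had 27 reads in the control against 73 with sevoflurane, although the control library was the deeper. These correspond to 1.61 CPM (1.06 to 2.34) and 7.35 CPM (5.76 to 9.24), and the ranges did not overlap. The level in the sevoflurane library was 4.58 times that of the control, and the interval reached down to 2.91 times. The log2 ratio, which a prior count of 2 draws towards 0 at such low counts, was 2.09 (1.54 to 2.89) and ranked 317 from the top of the 18050 genes. In the same libraries FKBP4, which encodes a related co-chaperone with the opposite effect on the receptor, had 88 and 59 reads and a log2 ratio of 0.18 (-0.32 to 0.67). FKBP5 reads per FKBP4 read numbered 0.307 in the control and 1.24 with sevoflurane, a 4.03-fold difference (exact 95% interval 2.25 to 7.30). Of the other relatives compared, FKBP2 was higher (0.52) and FKBP1A (-0.47), FKBP3 (-0.25) and FKBP8 (-0.27) were lower. None of the 5 relatives had an interval that overlapped the one of FKBP5.

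KLF9, a zinc finger transcription factor that follows cortisol and thyroid hormone and acts in maturing neurons, differed by less than FKBP5 but on many more reads. It had 907 reads in the control against 1166 with sevoflurane, or 54.0 CPM (50.5 to 57.6) and 117 CPM (111 to 124). Its level was 2.18 times that of the control and its log2 ratio was 1.12 (0.99 to 1.25). The relatives compared all had lower ratios. KLF6 was lower (-0.86), KLF10 (-0.22), KLF13 (-0.07) and KLF16 (-0.28) were slightly lower, and KLF4 stood at 0.39 with an interval of -0.16 to 0.96. KLF15, itself a known glucocorticoid-induced gene, was higher with 348 and 310 reads (log2 ratio 0.59, 0.37 to 0.82). None of these 6 intervals overlapped the one of KLF9. Measured against the receptor, KLF9 had 0.397 reads per NR3C1 read in the control against 0.804 with sevoflurane, a 2.03-fold difference (exact 95% interval 1.82 to 2.26). The 4 red blood cell genes summed to 24.8 CPM in the control and 80.8 CPM with sevoflurane. Of these, HBA1 had 0 and 70 reads, while HBA2 had 61 and 49 (log2 ratio 0.43, -0.13 to 1.01). How counting shared reads between HBA1 and HBA2 is not given in the sources used here. The 6 genes of meninges and choroid plexus summed to 206 and 413 CPM. The part of both gene sets in the levels of FKBP5, KLF9 and MT2A was not tested.

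TSC22D3 encodes GILZ, a leucine zipper protein through which glucocorticoids restrain inflammatory transcription factors. It had 623 and 441 reads, or 37.1 CPM in the control against 44.4 CPM with sevoflurane. The log2 ratio was 0.26 (0.08 to 0.44), close to that of NR3C2. At equal depth it was 0.18 and its interval (-0.02 to 0.38) included equal expression. Its relatives TSC22D1 (0.04), TSC22D2 (-0.36) and TSC22D4 (-0.01) were level or slightly lower.

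SGK1, a kinase that both receptors induce and that acts on ion channels and their regulators, did not differ between the libraries beyond counting error. It had 74 reads in the control against 44 with sevoflurane, or 4.40 and 4.43 CPM. Its log2 ratio of 0.01 carried a counting interval of -0.56 to 0.57. At this depth a level between 0.677 and 1.48 times that of the control could not be told from equality. SGK2, a related kinase that is not the usual glucocorticoid-induced one, was higher (175 and 243 reads, log2 ratio 1.22). NEDD4L, the ubiquitin ligase that SGK1 phosphorylates, was lower with 7784 and 3619 reads (-0.35, -0.40 to -0.29).

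ZBTB16 and ERRFI1 went the other way. ZBTB16 encodes PLZF, a transcriptional repressor, and had 996 reads in the control against 427 with sevoflurane. Its level was 59.3 CPM in the control and 43.0 CPM with sevoflurane, or 72.5% of the control (log2 ratio -0.46, -0.63 to -0.30). Its relatives ZBTB7A (0.43) and ZBTB20 (0.23) were higher. ERRFI1 encodes MIG6, an inhibitor of the epidermal growth factor receptor that growth factor signalling also induces. It had 628 and 214 reads, or 37.4 CPM in the control against 21.5 CPM with sevoflurane. That was 57.7% of the control, with a log2 ratio of -0.79 (-1.02 to -0.57), and ranked 1579 from the bottom of all genes. Among the kinases it inhibits, EGFR was slightly higher (1234 and 808 reads, log2 ratio 0.15) and ERBB2 was higher (171 and 190 reads, 0.90, 0.61 to 1.22). Of the 8 astrocyte markers, 6 had an interval below equal expression (75%, beside 28.1% of all genes). The 8 together came to 6232 CPM in the control and 4340 CPM with sevoflurane. The interval was also below for 8 of 8 oligodendrocyte, 5 of 5 oligodendrocyte precursor and 7 of 9 neuron markers. It was below for 1 of 8 microglia, 1 of 5 endothelial and 1 of 5 mural markers. The interval lay above for 4 of 8 microglia (50%), 1 of 5 endothelial (20%) and 2 of 5 mural markers (40%), beside 28.4% of all genes. The part of these cell types in the levels of ERRFI1, ZBTB16 or the genes that were higher was not tested.

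**Figure D2:**
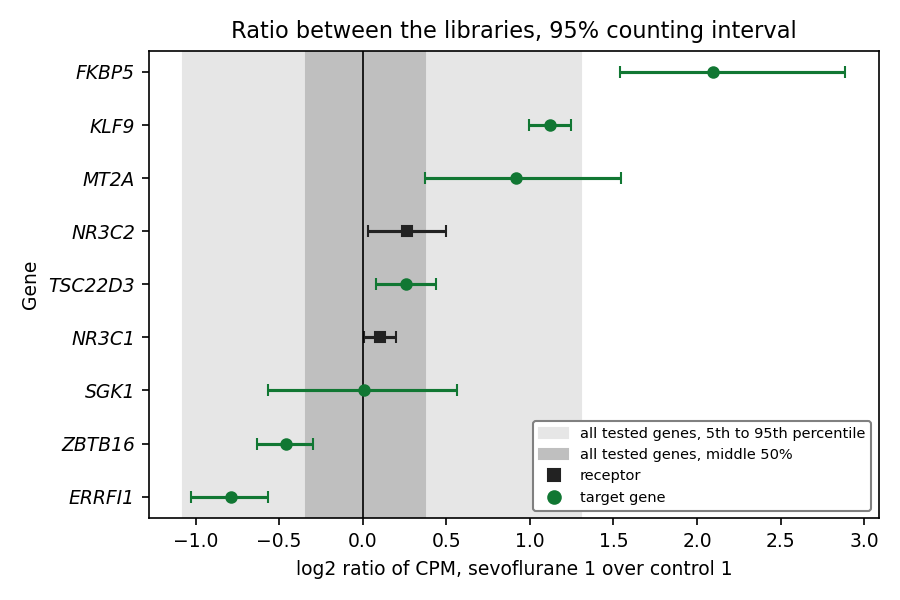
Log2 ratio of CPM, sevoflurane over control, for the receptors (black squares) and induced genes (green circles), with bars for 95% counting intervals; the dark band is the interquartile range of the 18050 genes compared and the light band the range from their 5th to their 95th percentile. FKBP5 (2.09) lies beyond the light band, KLF9 (1.12) and MT2A (0.92) lie beyond the dark band, and ZBTB16 (-0.46) and ERRFI1 (-0.79) lie below it.

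MT2A encodes a small metal-binding protein that glucocorticoids, zinc and oxidants all induce. It had 48 reads in the control against 55 with sevoflurane, or 2.86 CPM (2.11 to 3.79) and 5.54 CPM (4.17 to 7.21). Its level was 1.94 times that of the control, and its log2 ratio was 0.92 (0.37 to 1.54). The other metallothioneins did not move with it as a family. MT1E was higher with 168 and 161 reads (0.69, 0.38 to 1.02), MT1M had 106 and 52 reads (-0.26, -0.78 to 0.22), and MT1X was lower with 116 and 25 reads (-1.40, -2.14 to -0.82). MT3, the brain form, which does not respond to glucocorticoids in the same way, had 653 and 369 reads (-0.06, -0.25 to 0.12). MT1F, MT1G, MT1H and MT4 were not listed in the table under those symbols.

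The MT1 genes and MT2A are near copies of each other, and how counting shared reads among them is not given in the sources used here, so the ratio of any single one is uncertain. The sum of MT1E, MT1M, MT1X and MT2A, which does not depend on sharing among these 4, was 438 reads in the control against 293 with sevoflurane, or 26.1 and 29.5 CPM. Its log2 ratio was 0.18, and the interval of -0.04 to 0.40 included equal expression. Of this sum, MT2A held 11.0% of the reads in the control (exact 95% interval 8.19 to 14.3) and 18.8% in the sevoflurane library (14.5 to 23.7). The higher level of MT2A thus stood beside a summed level that did not differ beyond counting error.

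**Figure D3:**
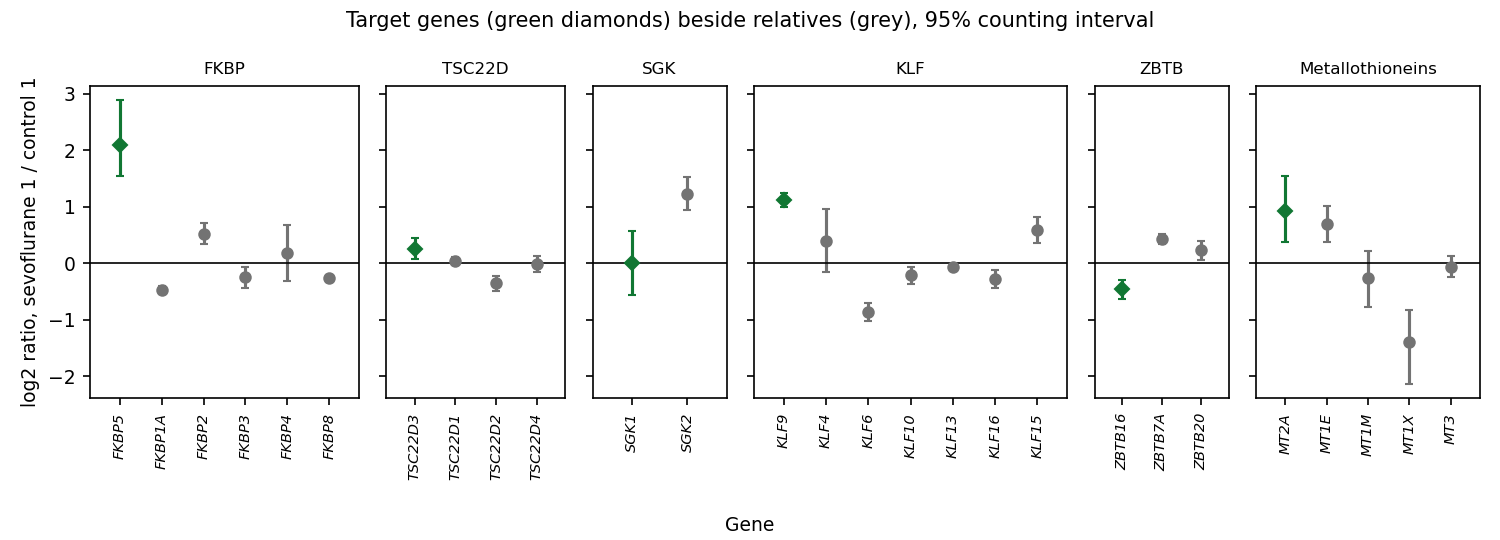
Log2 ratio of sevoflurane over control for 6 of the induced genes (green diamonds) beside the listed relatives with at least 1 CPM in either library (grey circles), with 95% counting intervals. FKBP5 and KLF9 stand above the relatives shown of their own family, SGK1 below SGK2, and ZBTB16 below ZBTB7A and ZBTB20. The metallothioneins spread from -1.40 (MT1X) to 0.92 (MT2A).

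Further genes that glucocorticoids are known to induce were compared from a list of 32, of which 26 reached 1 CPM in at least 1 library. Their median log2 ratio was 0.40, above the -0.0048 of all genes. The interval lay above equal expression for 15 of the 26 (57.7%, beside 28.4% of all genes) and below it for 7 (26.9%, beside 28.1%). Past 2-fold, 5 were higher (19.2%, beside 7.56%) and 1 was lower (3.85%, beside 5.47%), so the shares of lower genes were near those of all genes. The 5 were NFKBIA, the inhibitor of NF-kB, with 307 and 505 reads (1.47, 1.27 to 1.69), the transcription factor CEBPB with 86 and 115 reads (1.16), ZFP36, which destabilises cytokine messages, with 58 and 77 reads (1.13), TXNIP, a thioredoxin-binding protein that limits glucose uptake, with 822 and 1027 reads (1.08), and CEBPD with 31 and 74 reads (1.93, 1.39 to 2.67). ANGPTL4, an inhibitor of lipoprotein lipase, was the one at least 2-fold lower, with 81 and 18 reads (-1.34). CEBPD and ANGPTL4 were named after their values were seen. Several of these genes also follow cytokine or activity signals, as NFKBIA, CEBPB, CEBPD and ZFP36 do.

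Other genes of the same list were lower, level or less than 2-fold higher. CDKN1A, a cell cycle inhibitor, was lower with 987 and 334 reads (-0.80, -0.99 to -0.62), and so were BIRC3 (-0.92), TNFAIP3 (-0.64) and RASD1 (-0.41). PER1, a clock gene with a strong glucocorticoid response in many tissues, was slightly lower with 2631 and 1345 reads (-0.21, -0.31 to -0.11). DUSP1, a phosphatase that limits MAP kinase signalling, was higher with 456 and 379 reads (0.49, 0.29 to 0.69). DDIT4, a stress-induced inhibitor of mTOR, was level with 412 and 242 reads (-0.01, -0.24 to 0.22). The inducible genes thus held higher, lower and level members side by side, as the 7 described above did.

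The unliganded receptor is held in a hormone-binding state by HSP90 and its partners, and 16 such genes were compared. Their median log2 ratio was -0.22. The interval lay below equal expression for 11 (68.8%, beside 28.1% of all genes) and above it for 2 (12.5%, beside 28.4%). At 2-fold, 0 were higher or lower, beside 7.56% and 5.47% of all genes. Most of these genes have many reads, so that small differences exceed counting error. The lowest was HSP90AA1, the inducible HSP90, which had 2773 reads in the control against 856 with sevoflurane (-0.94, -1.05 to -0.83). HSP90AB1, the constitutive form, had 28672 and 12995 reads (-0.38, -0.41 to -0.35), and DNAJA1 (-0.64), PPID (-0.47) and HSPA4 (-0.39) were lower as well. BAG1 (0.54) and CDC37 (0.45) were higher. Reads of HSP90 and HSPA8 genes can be shared with processed copies in the genome, and how such reads were counted is not given in the sources used here.

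Of 16 coregulators, through which the bound receptor acts on chromatin, the interval lay above equal expression for 11 (68.8%, beside 28.4% of all genes) and below it for 2 (12.5%, beside 28.1%), again on many reads. The median log2 ratio was 0.30. Past 2-fold, 1 gene was higher (6.25%, near the 7.56% of all genes) and 0 were lower, beside 5.47%. PPARGC1A, a coactivator known for its role in mitochondrial gene expression, was higher with 800 and 772 reads (0.71, 0.56 to 0.85), and so were the acetyltransferase CREBBP (0.65) and the methyltransferase CARM1 (0.60), while HDAC3 (-0.32) and TRIM24 (-0.19) were lower. The coactivators NCOA1 (0.37), NCOA2 (0.38) and NCOA3 (0.41) had closely similar ratios.

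**Figure D4:**
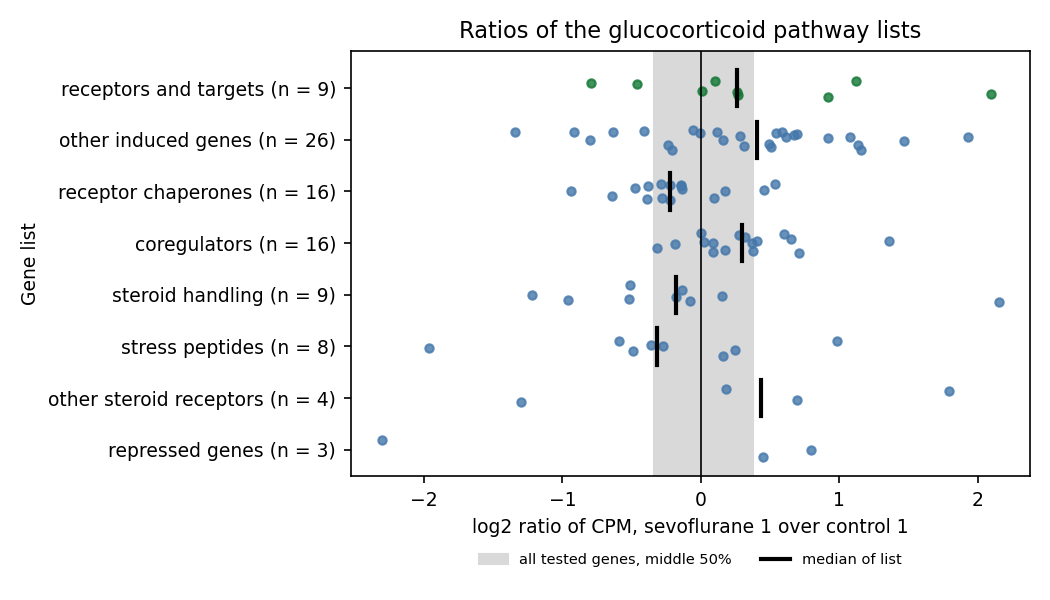
Log2 ratio of sevoflurane over control, by list, for each gene with reads in both libraries and at least 1 CPM in either. The median of each list is a black line where at least 4 genes are drawn. The grey band is the interquartile range of all genes compared. The receptors and induced genes (green) spread from -0.79 to 2.09, the chaperones lie mostly below 0 and the coregulators mostly above.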

How the data were processed

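Prefrontal cortex RNA of 2 macaques, 1 control and 1 exposed to sevoflurane, was sequenced. The table deposited by the authors holds raw counts of reads for each gene. HISAT2 2.0.4 is named in the submitters' processing notes, and the counting tool, strand setting, genome build and annotation are not given in the sources used here. Counts were scaled by TMM factors (0.991 for the control, 1.01 for the sevoflurane library) computed with edgeR 4.0.16 in R 4.3.3 on genes reaching 1 CPM in one library or the other. Log2 ratios used a prior count of 2. Intervals were derived from Clopper-Pearson limits on how each gene's reads divide between the libraries (scipy 1.17.1). Genes were called at 2-fold where that interval also excluded equality. A quasi-likelihood fit in edgeR was not possible with a single library per group. The floor of 3 reads was 0.179 CPM (control) and 0.302 CPM (sevoflurane). CPM is not corrected for transcript length, so levels are not compared between genes. The procedure was also run on simulated libraries with 200 changed genes and counting error only, which cannot speak to differences between animals. As alternatives, scaling used library totals, upper quartiles or DESeq2 1.42.0 size factors, the control library was sampled down, the prior count was 0.5, filters were looser or stricter, the threshold was 1.5-fold or 4-fold, and the interval was widened.

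The members and lists were chosen with earlier results of these data known. Named genes are all 9 members, fixed partners, and up to 4 of the highest and 4 of the lowest in each list where the mean reached 5 CPM and the interval excluded equality, except 1 that is not reported here. Comparisons of FKBP5 with FKBP4 and of KLF9 with NR3C1 were added after their counts were seen. No sequences were used here.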

Additional observations from a re-analysis of the deposited data

How the results depend on the processing

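The log2 ratios of the 9 genes kept their sign under all scalings, prior counts and depths run, from 2.09 to 2.17 for FKBP5, 1.12 to 1.15 for KLF9, 0.72 to 0.95 for MT2A, -0.79 to -0.76 for ERRFI1 and -0.46 to -0.41 for ZBTB16. Library totals shifted the median of all genes from -0.0048 to 0.02. With a wider interval (the strictest confidence level run), 2 of the 9 genes (FKBP5 and KLF9) rather than 6 stayed above equal expression. A threshold of 1.5-fold put 1 gene (ERRFI1) among the lower, and one of 4-fold left 1 gene (FKBP5) among the higher, as their construction requires. Over all genes, 1364 were at least 2-fold higher and 988 lower, against 606 and 474 with a filter of 5 CPM, 2604 and 2141 at 1.5-fold, and 352 and 221 at 4-fold. The median of the glucocorticoid-repressed genes went from 0.62 to -0.91 with the 5 CPM filter, which leaves fewer genes. No paired analysis was possible because there was a single library per group, and none could be left out. FKBP5, SGK1 and MT2A each had under 100 reads in both libraries, which limits the precision of their ratios.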

Other observations

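Among genes that make, activate or remove steroids, HSD11B1, which regenerates cortisol, had 5 reads in the control against 1 with sevoflurane, and HSD11B2, which inactivates it, had 18 and 10 (log2 ratio -0.08, 95% counting interval -1.37 to 1.10). H6PD, which supplies the cofactor of the HSD11B1 enzyme, had 846 and 442 reads (-0.18). The reductases SRD5A1 (421 and 127 reads, -0.96, -1.27 to -0.68) and SRD5A3 (-0.52) were lower. Of the 9 genes of this list with at least 1 CPM, 1 was at least 2-fold higher and 1 lower, both at low counts. Each was 11.1% of the list, beside 7.56% of all genes higher and 5.47% lower. CYP17A1 had 3 and 13 reads (1.01 to 5.33) and STAR had 27 and 6 (-2.98 to -0.11), and both were named after their values were seen.

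Among stress peptides, CRH, the peptide that starts the hormonal stress response, had 210 reads in the control against 82 with sevoflurane (-0.59, -0.98 to -0.22). Its binding protein CRHBP was slightly lower (-0.28) and its receptor CRHR1 slightly higher (0.24, 0.08 to 0.41). ADCYAP1, the precursor of PACAP, had 416 and 62 reads (-1.96, -2.40 to -1.60), and its receptor ADCYAP1R1 was lower too (-0.36). Of the 8 genes compared, ADCYAP1 alone was called at least 2-fold lower (12.5%, beside 5.47% of all genes), and 0 were called higher, beside 7.56%. CRHR2 stood at the mark, with 39 and 47 reads and a level 2.04 times that of the control. Its log2 ratio, which the prior count draws towards 0, was 0.98 (0.38 to 1.68). CRHR2 was named after its values were seen.

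Of 12 inflammatory genes known to be repressed by glucocorticoids, 4 had at least 1 CPM in either library. PTGS2, the inducible cyclooxygenase, was lower with 487 and 57 reads (-2.31, -2.76 to -1.94), while VCAM1 (0.45) and ICAM1 (34 and 36 reads, 0.80, 0.12 to 1.56) were higher. SELE had 0 reads in the control against 10 with sevoflurane, and its counting interval for the log2 ratio began at 1.92. PTGS2 is also an activity-regulated gene in cortical neurons. Of the other steroid receptors, ESR1 was lower (66 and 15 reads, -1.30) and PGR higher (8 and 20 reads, 0.84 to 3.47), both at low counts, and ESRRA, an orphan receptor, was higher with 358 and 343 reads (0.69). ICAM1, SELE, ESR1 and PGR were named after their values were seen.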
